A study of Mus musculus with 50 samples.

Results

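The paired, LIM, sine oculis and TALE homeobox genes were described in mouse embryonic stem cells (ESCs) that lacked parts of Polycomb repressive complex 2 (PRC2). The genes were chosen by symbol: every PAX, PITX, ALX, PRRX, OTX, PHOX2, VSX, RAX, SHOX2, GSC, LHX, ISL, LMX1, sine oculis, IRX, MEIS, PBX and PKNOX gene with a row in the table of normalised RNA-seq counts. The rule gave 55 of 18055 genes, and 4 further symbols of the annotation that match it (Lmx1b, Pax4, Phox2a and Six6) were not analysed here. By class, the 55 were 8 PAX genes, 16 paired-like genes, 11 LIM genes, 5 sine oculis genes, 6 Iroquois (IRX) genes of the TALE class, and 9 MEIS, PBX and PKNOX genes of the TALE class.

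WT cells were the mouse ESC line E14TG2a. Ezh2 KO cells had the whole Ezh2 gene excised with CRISPR/Cas9. Ezh1/2 dKO cells lacked both Ezh1 and Ezh2. Ezh2 Y726D and Ezh2 R685C cells carried a point substitution in the catalytic domain of EZH2, made in cells without Ezh1. The labels of the Ezh2 Y726D samples for SUZ12 and H3K27me3 do not name the Ezh1 knockout, unlike those of its other samples used here. All were taken as the same line, as the study's methods describe it. Each mutant line was a clone, and all lines were grown in serum medium with LIF and the kinase inhibitor pair known as 2i, so a difference between lines is a difference between these clones. In a further pair of dKO cultures, human EZH1 with an HA tag was put back into one by transfection of a plasmid and selection with puromycin. The other, untransfected culture without the tagged protein served as the control of the HA ChIP. RNA-seq covered WT cells and every mutant but Ezh2 R685C, with 2 libraries each, and the labels do not say that these came from separate cultures, so p-values measure only the spread between libraries. ChIP-seq peak lists were available as 1 list per line and target, without a depth, so that lines were not tested against each other. No H3K27ac list of WT cells was used here.

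The homeobox genes treated here encode transcription factors, most of which bind DNA through a homeodomain. Several of the classes have a further feature. PAX proteins carry a paired domain, LIM proteins bind the adaptor LDB1 through their LIM domains, sine oculis proteins work with EYA co-activators, and TALE proteins have a homeodomain with a longer loop and often bind DNA as partners of other factors. They specify organs and neurons in the embryo, most are silent in ESCs, and their promoters are classic targets of PRC2, which methylates lysine 27 of histone H3 (H3K27) through EZH2 or EZH1 and contains SUZ12 as a core subunit. Acetylation of the same residue (H3K27ac) marks active promoters and enhancers and cannot occupy a methylated lysine.

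The RNA libraries held 3604123 to 5181553 reads, of which 919 to 2667 fell on the 55 genes. Normalised Ezh2 counts were 598 and 546 in WT, 1.05 and 0.968 in Ezh2 KO, 0.824 and 1.78 in the dKO, and 422 and 613 in Ezh2 Y726D. Ezh1 was at 227 and 377 in WT, 372 and 378 in Ezh2 KO, 14.01 and 20.42 in the dKO, and 24.1 and 15.7 in Ezh2 Y726D, as the labels and the study's methods give these genotypes. All 8 markers of pluripotent cells were present in every line. Counting did not use the strand. The spans of Irx3, Isl2, Lhx2, Meis1, Pax1, Pax2, Pax5, Pax6, Pax8, Pax9, Pbx3, Pitx3, Pknox1, Pknox2, Prrx1, Rax, Shox2 and Six3 overlap those of antisense genes. Reads from any shared exon could not be told apart, and overlap of exons was not checked.

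Sequences were read where SUZ12 sat in WT cells. For 48 of the genes a SUZ12 summit lay within 5 kb of a start site, at a median distance of 611.5 bp, and the 300 bases around the strongest such summit held 16 to 42 CpG dinucleotides (the motif CG, the same on both strands), with a median of 25. Over all 5404 WT SUZ12 peaks the median was 23, so that these windows were about as rich in CpG as SUZ12 peaks in general. Windows from 250 bases before to 50 bases after the start held a median of 16 CpG for the 55 genes and 17 for all 16419 promoters read. Among promoters with WT SUZ12 the median was 16 for the 49 homeobox genes and 20 for all 2861, so these start windows were not richer in CpG than others. The windows below are from mm9, written 5′ to 3′ on the strand of the gene with each CpG in capitals, and annotated with GENCODE vM1. Pax7 (intronic, chr4:139387682-139387981, minus strand) had a SUZ12 peak in all 5 lines. Otx2 (intronic, chr14:49285844-49286143, minus strand) had H3K27ac in all 4 mutants. Lmx1a (upstream of the gene, chr1:169618688-169618987, plus strand) was called in RNA-seq. Six2 (167 coding and 133 intronic bases, chr17:86086600-86086899, minus strand) had H3K27ac in Ezh2 Y726D and in no other mutant. Six4 (chr12:74214402-74214701, minus strand) and Pknox1 (chr17:31701418-31701717, plus strand) had no SUZ12 peak, and for these the 300 bases before the gene are shown.
Pax7: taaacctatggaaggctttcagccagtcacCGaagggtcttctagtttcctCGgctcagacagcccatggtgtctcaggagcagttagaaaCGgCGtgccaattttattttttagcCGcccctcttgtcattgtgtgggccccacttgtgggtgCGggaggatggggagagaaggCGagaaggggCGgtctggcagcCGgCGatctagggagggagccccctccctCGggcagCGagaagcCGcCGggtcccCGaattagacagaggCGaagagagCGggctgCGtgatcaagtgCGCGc
Otx2: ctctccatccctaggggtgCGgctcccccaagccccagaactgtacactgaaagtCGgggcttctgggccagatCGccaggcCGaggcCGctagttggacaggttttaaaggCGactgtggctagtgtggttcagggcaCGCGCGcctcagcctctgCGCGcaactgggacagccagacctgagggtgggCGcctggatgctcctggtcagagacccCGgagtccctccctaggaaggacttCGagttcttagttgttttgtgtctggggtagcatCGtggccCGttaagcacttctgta
Lmx1a: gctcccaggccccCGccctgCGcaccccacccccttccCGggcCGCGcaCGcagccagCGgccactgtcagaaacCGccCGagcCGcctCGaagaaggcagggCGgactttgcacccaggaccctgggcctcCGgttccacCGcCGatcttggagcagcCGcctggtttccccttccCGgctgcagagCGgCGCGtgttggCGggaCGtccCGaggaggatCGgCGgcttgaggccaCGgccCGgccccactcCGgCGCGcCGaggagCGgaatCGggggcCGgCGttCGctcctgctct
Six2: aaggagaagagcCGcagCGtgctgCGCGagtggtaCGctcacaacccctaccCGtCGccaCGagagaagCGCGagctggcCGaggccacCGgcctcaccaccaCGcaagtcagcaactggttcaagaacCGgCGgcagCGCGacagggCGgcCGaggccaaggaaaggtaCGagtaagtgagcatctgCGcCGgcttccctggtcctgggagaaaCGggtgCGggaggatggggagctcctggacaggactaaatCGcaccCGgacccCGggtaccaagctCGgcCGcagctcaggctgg
Six4: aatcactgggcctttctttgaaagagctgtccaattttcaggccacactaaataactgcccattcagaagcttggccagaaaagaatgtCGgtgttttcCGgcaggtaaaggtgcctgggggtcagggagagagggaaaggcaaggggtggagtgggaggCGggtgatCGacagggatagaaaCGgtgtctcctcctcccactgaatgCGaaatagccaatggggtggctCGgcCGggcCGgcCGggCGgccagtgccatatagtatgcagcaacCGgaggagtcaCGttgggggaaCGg
Pknox1: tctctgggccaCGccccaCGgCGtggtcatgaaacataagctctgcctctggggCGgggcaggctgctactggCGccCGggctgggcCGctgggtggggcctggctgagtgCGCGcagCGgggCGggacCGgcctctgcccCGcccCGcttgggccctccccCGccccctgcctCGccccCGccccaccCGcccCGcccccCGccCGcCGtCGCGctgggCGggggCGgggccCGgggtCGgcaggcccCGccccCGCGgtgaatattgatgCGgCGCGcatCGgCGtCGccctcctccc
The Pknox1 window held 37 CpG and the Six4 window 14, and Otx2 had the fewest CpG of the 48 summit windows, 16.

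In WT cells nearly all of these genes carried PRC2 and its mark. A SUZ12 peak lay within 5 kb of a start site of 49 of the 55 genes, against 17.4% of all 16423 protein-coding genes. An H3K27me3 peak was found at 50 of the 55, against 22.4%. All 49 genes with SUZ12 also had H3K27me3, and Meis3 had H3K27me3 alone. All 8 PAX, 16 paired-like, 11 LIM and 6 IRX genes had SUZ12, as did 4 of the 5 sine oculis genes, but only 4 of the 9 MEIS, PBX and PKNOX genes. The 6 genes without SUZ12 included Meis3, Pbx2, Pbx4, Pknox1 and Six4. The PBX and PKNOX proteins are cofactors that pair with HOX and MEIS proteins, and Six4 is a sine oculis gene of muscle and sensory development. The strongest −log10 p of the WT SUZ12 peaks at a gene ranged from 17.6 at Prrx2 to 177.7 at Alx4.

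**Figure D1:**
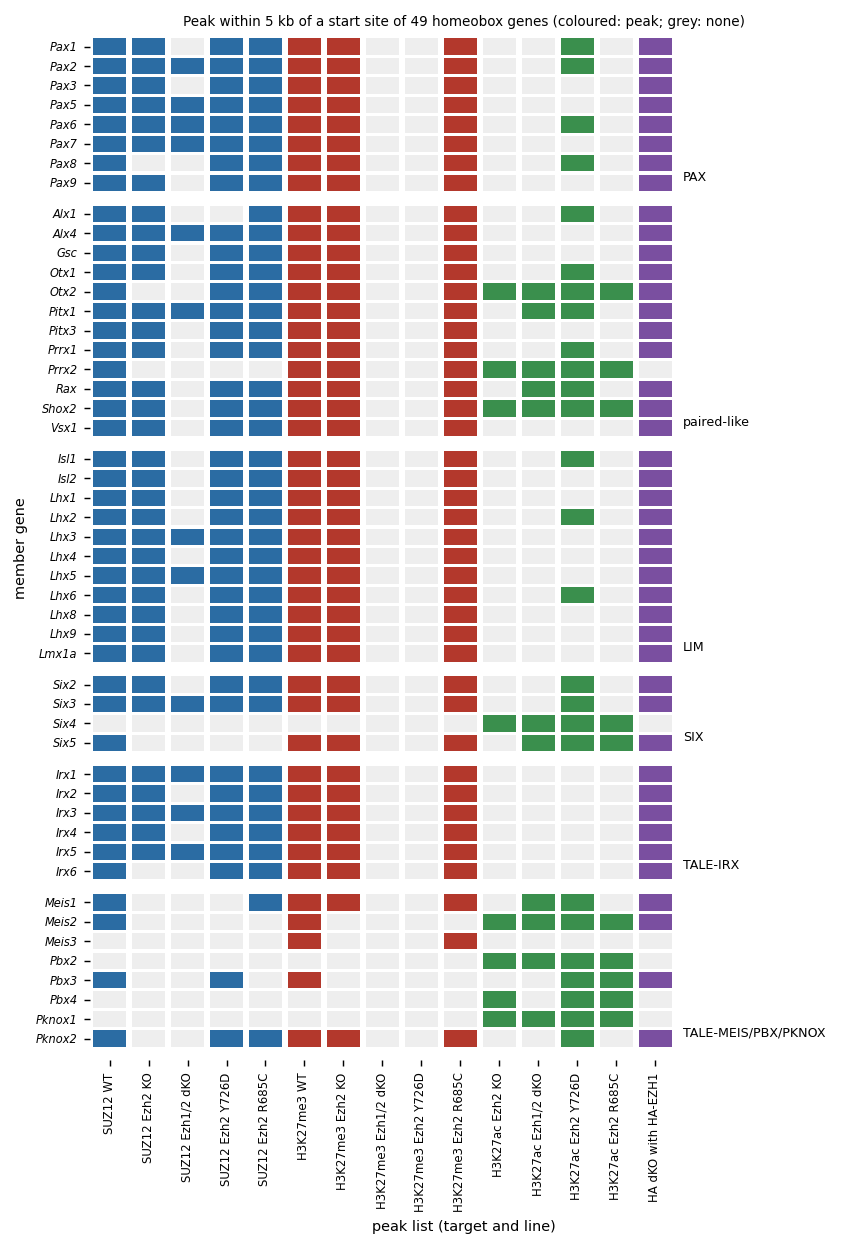
Peaks within 5 kb of a start site of the homeobox genes, one row for each of 49 genes in its class and one column per target and line; coloured cells have a peak (blue SUZ12, red H3K27me3, green H3K27ac, purple HA-EZH1) and grey cells have none. The genes without WT SUZ12 lie in the sine oculis and in the MEIS, PBX and PKNOX classes, and no gene drawn has H3K27me3 in Ezh1/2 dKO or Ezh2 Y726D.

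SUZ12 peaks were found at different numbers of these genes in the mutants. In Ezh2 KO cells 38 of the 55 genes had one, against 4.91% of all genes. In Ezh1/2 dKO cells, which have neither methyltransferase, 13 of the 55 still had one, against 1.16%. In Ezh2 Y726D cells there were 44, against 12.3%, and in Ezh2 R685C cells 45, against 9.94%. These shares stood far above those of all genes in every line, as in WT. A peak's −log10 p is relative to the background of its own list, so that its size was not compared between lists.

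The 13 genes with a SUZ12 peak in the dKO had one in all 5 lines, and included Pax2, Pax5, Pax6 and Pax7, the paired-like genes Alx4 and Pitx1, the LIM genes Lhx3 and Lhx5, Six3, and Irx1, Irx3 and Irx5. Their dKO peaks covered 253 bp (Lhx5) to 1467 bp (Six3) within 5 kb of the start sites, with −log10 p from 10.8 (Lhx3 and Pax6) to 18.1 (Irx3), close to the 1e-10 threshold of the list. In WT cells SUZ12 covered a median of 7584 bp at these 13 genes and 4818 bp at the 36 that had no dKO peak, and the medians of the strongest −log10 p were 126.3 and 85.9. The covered length depends on how many start sites a gene has, since the windows around them are joined.

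A few genes lost SUZ12 in lines where most kept it. In Ezh2 Y726D the 5 genes with a WT peak and none in the mutant were Alx1, Meis1, Meis2, Prrx2 and Six5. Alx1 is a gene of the facial mesenchyme, and Meis1 and Meis2 encode HOX cofactors. In Ezh2 KO the 11 genes without their WT peak included Irx6, Meis1, Meis2, Otx2, Pax8, Pbx3, Pknox2, Prrx2 and Six5. Meis2, Pbx3, Prrx2 and Six5 were the genes that had SUZ12 in WT and not in Ezh2 R685C. The peak at Lhx5, a LIM gene of forebrain neurons, had a −log10 p of 146.9 in WT, 51.6 in Ezh2 KO, 12.6 in the dKO, 34.8 in Ezh2 Y726D and 120.1 in Ezh2 R685C. Pax9, a gene of teeth and pharyngeal pouches, had 128.6, 33.6, no peak, 13.6 and 94.5 in the same order.

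H3K27me3 split the lines in another way. It was present at 47 of the 55 genes in Ezh2 KO (17.3% of all genes) and at 48 in Ezh2 R685C (28.5%). It was found at 1 gene in the dKO (0.11%) and at 0 in Ezh2 Y726D (1.37%). Among the 50 genes with H3K27me3 in WT, only Meis2, Meis3 and Pbx3, all of the TALE class, had none in Ezh2 KO cells. In Ezh2 R685C the 7 genes without H3K27me3 included Meis2, Pbx2, Pbx3, Pbx4, Pknox1 and Six4. Ezh2 Y726D thus had SUZ12 at 44 of these genes and H3K27me3 at none, whereas Ezh2 KO had SUZ12 at 38 and H3K27me3 at 47.

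**Figure D2:**
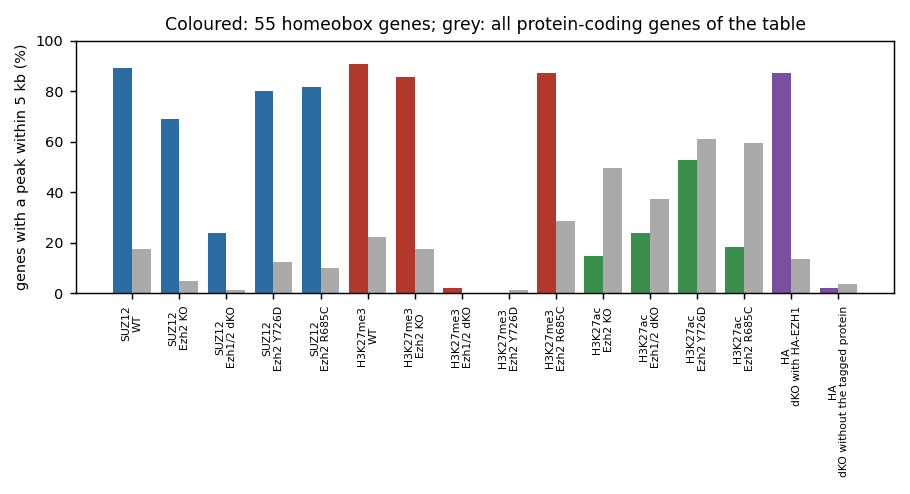
Share of genes with a peak within 5 kb of a start site (percent, y axis) for each target and line (x axis), coloured bars for the 55 homeobox genes and grey bars for all 16423 protein-coding genes. The homeobox genes stand above all genes for SUZ12 in all 5 lines, for H3K27me3 in WT, Ezh2 KO and Ezh2 R685C, and for HA-EZH1, and below all genes for H3K27ac in all 4 mutants.

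Human EZH1 put back into dKO cells by transfection was found at most of these promoters. HA peaks were present at 48 of the 55 genes in the culture with HA-EZH1, against 13.3% of all genes. The culture without the tagged protein had a peak at 1 gene, Rax, a gene of eye development, against 3.7% of all genes. The 7 genes without HA-EZH1 were the 6 without WT SUZ12 and Prrx2.

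The lower methylation states were given as broad regions at a lenient threshold, and some lists lacked chromosomes. A gene was counted only where the list held its chromosome. By western blot, the paper reports that all H3K27 methylation was lost in the dKO and in Ezh2 Y726D. By ChIP-seq, it also reports that H3K27me2 was gone from the bodies of poorly expressed genes in both lines. Regions listed in these lines are therefore not read as presence of the mark. H3K27me2 regions reached 18 of 51 genes in WT (82% of all genes), 52 of 55 in Ezh2 KO (51.5%), 52 of 55 in the dKO (86.5%) and 53 of 55 in Ezh2 Y726D (87.9%). In WT these genes were thus below the share of all genes, and in Ezh2 KO above it. Among genes with a region, the median of the strongest −log10 p in Ezh2 KO was 6.23 for the homeobox genes and 2.62 for all genes. In the dKO and in Ezh2 Y726D it was 1.497 and 1.555, beside 1.479 and 1.515 for all genes. The Ezh2 KO genes without a region were Pbx2, Pknox1 and Six4. H3K27me1 regions reached 12 of 55 genes in WT (75% of all genes), 41 of 51 in Ezh2 KO (60.8%), 38 of 40 in the dKO (78.3%) and 30 of 31 in Ezh2 Y726D (85.8%), with medians of the strongest −log10 p from 1.53 to 1.61 in all 4 lines. Regions of open chromatin by ATAC-seq were listed at all 55 genes in the 4 lines with a list, but also at 99% of all genes or more, so this list did not separate them.

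**Figure D3:**
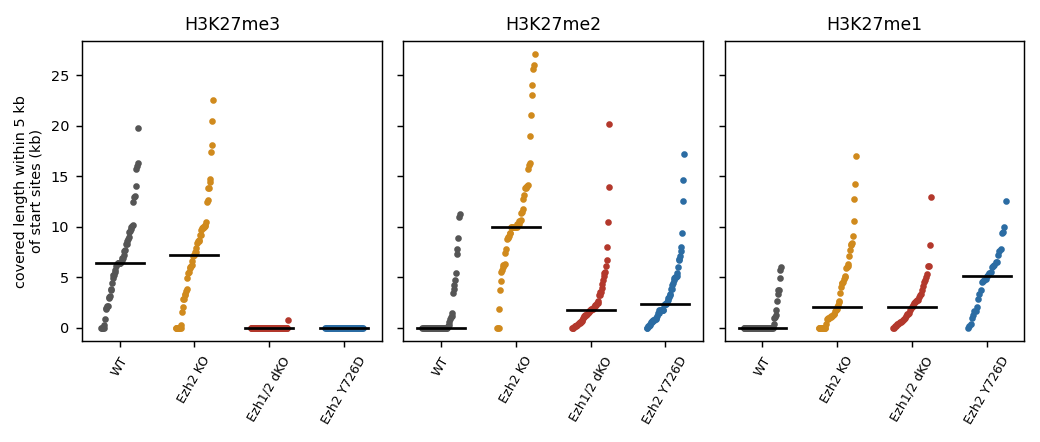
Length covered by peaks or regions within 5 kb of the start sites (kb, y axis) for H3K27me3, H3K27me2 and H3K27me1 in 4 lines (x axis), one point per homeobox gene whose chromosome is in the list, and the median as a bar. H3K27me2 covers up to 27084 bp of a gene in Ezh2 KO, and H3K27me3 covers no gene in Ezh2 Y726D and 1 gene in Ezh1/2 dKO.

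H3K27ac was less frequent at these genes than at all genes in each mutant, and most frequent in Ezh2 Y726D. It was found at 8 of the 55 genes in Ezh2 KO (49.4% of all genes), at 13 in the dKO (37.3%), at 29 in Ezh2 Y726D (60.9%) and at 10 in Ezh2 R685C (59.6%). The lists held 25483, 17618, 40829 and 41185 peaks, so Ezh2 Y726D and Ezh2 R685C had lists of similar length and 29 and 10 genes with a peak. Among the 49 genes with SUZ12 in WT, the counts were 4 in Ezh2 KO, 10 in the dKO, 24 in Ezh2 Y726D and 6 in Ezh2 R685C. Of all 2861 genes with WT SUZ12, 17.9% had it in Ezh2 KO, 21.5% in the dKO, 49.5% in Ezh2 Y726D and 25.1% in Ezh2 R685C, so the shares of these 49 were near those of other SUZ12 genes in the dKO and Ezh2 Y726D (20.4% and 49%) and lower in Ezh2 KO and Ezh2 R685C (8.16% and 12.2%). No IRX gene had H3K27ac in any mutant, and 25 of the 49 had none in any, beside 47.4% of the 2861.

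The 4 genes with WT SUZ12 and H3K27ac in Ezh2 KO had it in all 4 mutants: Meis2, Otx2, Prrx2 and Shox2. At Shox2 and Prrx2 the peak lay more than 1 kb from their start sites in Ezh2 KO, and the start sites of Rsrc1 and Asb6, both expressed, lay within 5 kb of these genes. Meis2, which had lost SUZ12 in all 4 mutants, had H3K27ac with a −log10 p of 58.5 in Ezh2 KO, 43.0 in the dKO, 83.7 in Ezh2 Y726D and 85.2 in Ezh2 R685C. At Otx2, a gene of the epiblast and forebrain, it was 35.0, 19.0, 66.7 and 68.1, while H3K27me3 was also called there in Ezh2 KO (20.4) and Ezh2 R685C (19.7).

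The genes Meis1, Pitx1, Rax and Six5 had H3K27ac in both the dKO and Ezh2 Y726D and not in Ezh2 KO. At Pitx1, a gene of the hindlimb and pituitary, the −log10 p was 10.5 in the dKO and 14.1 in Ezh2 Y726D, beside SUZ12 at 11.7 and 29.9 in the same lines. In Ezh2 Y726D, 19 genes had SUZ12 and H3K27ac together, among them Isl1, Lhx2, Pax6 and Six3. By class, H3K27ac in Ezh2 Y726D was found at 4 of 8 PAX, 9 of 16 paired-like, 3 of 11 LIM, 5 of 5 sine oculis, 0 of 6 IRX and 8 of 9 MEIS, PBX and PKNOX genes. With a stricter threshold of 1e-20 the count fell from 29 to 12 in Ezh2 Y726D and from 13 to 3 in the dKO, so many of these peaks were weak.

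In RNA-seq most of these genes were at or near 0. In bulk RNA, a gene low in every cell and one expressed in few cells cannot be told apart. Per kb of exons, the mean normalised count over the 8 libraries ranged from 0.0635 (Irx6) to 65.3 (Pknox1). The highest level per kb was 1.31 among PAX genes (Pax9), 58.4 among paired-like genes (Otx2), 11.1 among LIM genes (Lhx6), 26.2 among sine oculis genes (Six4), 1.91 among IRX genes (Irx4) and 65.3 among MEIS, PBX and PKNOX genes (Pknox1). The median level per kb was 20.7 for the 6 genes without WT SUZ12, 1.54 for the 36 with SUZ12 in WT but not in the dKO, and 0.213 for the 13 with SUZ12 in both. Pknox1 was level across lines, with normalised counts of 272 and 243 in WT, 279 and 282 in Ezh2 KO, 239 and 292 in the dKO, and 307 and 286 in Ezh2 Y726D.

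**Figure D4:**
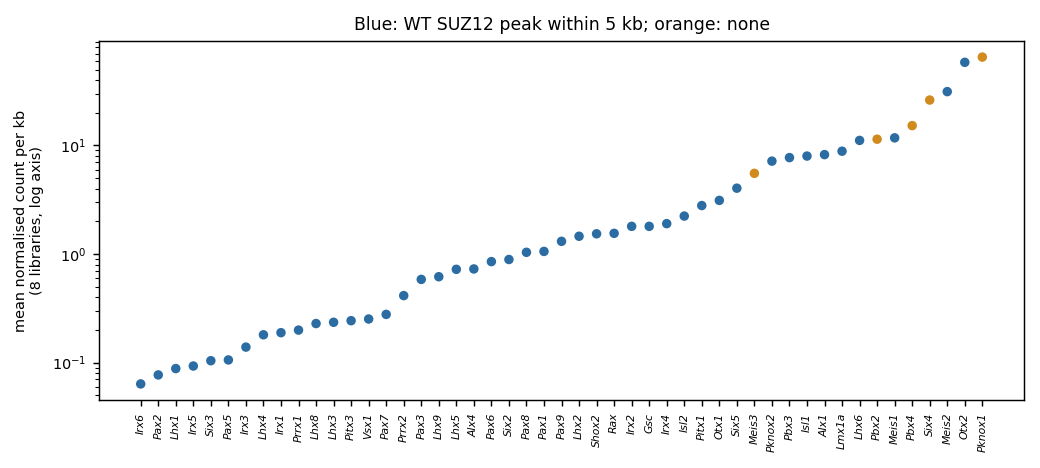
Mean normalised count per kb of exons over the 8 RNA-seq libraries (y axis, log scale) for 49 homeobox genes (x axis), blue with and orange without a SUZ12 peak in WT. The genes drawn without SUZ12 lie between 5.54 (Meis3) and 65.3 (Pknox1), and those with SUZ12 between 0.0635 (Irx6) and 58.4 (Otx2).

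Only 26 of the 55 genes reached a mean normalised count of 5 and were tested, with limma on log2(normalised count + 1). A gene was called at a Benjamini-Hochberg adjusted p below 0.1 over 13872 genes and a log2 fold change of at least 1 in size. A gene could pass the filter through 1 line in which it was high, so counts over the 26 do not stand for all 55.

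Without EZH2 alone, the HOX cofactors Meis1 and Meis2 were higher. Both were called higher in Ezh2 KO than in WT and no gene lower, against 0.0937% of all genes called higher and 0.31% lower. Meis2 rose from normalised counts of 204 and 210 in the WT libraries to 551 and 518 in those of Ezh2 KO, a log2 fold change of 1.36 (SE 0.19, adjusted p = 0.0262). Meis1 rose from 29.3 and 16.4 to 101 and 77.4, a log2 fold change of 1.97 (SE 0.36, adjusted p = 0.0909). The groups did not overlap for either gene. The Meis1 call was lost in 11 of 13 other settings, and the Meis2 call without WT replicate 1 or without either Ezh2 KO library. The tested gene with the largest decrease among those with both libraries below WT was Lmx1a, whose WT libraries were at 37.4 and 5.78 and whose Ezh2 KO libraries were at 2.09 and 1.94, but its log2 fold change of -2.42 (SE 0.76, adjusted p = 0.335) did not pass the test. DESeq2, and limma without WT replicate 2, called it lower.

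Without both enzymes, Meis1, Alx1 and Pitx1 were higher than in WT. These 3 were called higher and 0 lower, against 3.63% and 0.389% of all genes. Meis1 reached 178 and 129 in the dKO, a log2 fold change of 2.73 (SE 0.36, adjusted p = 0.0110), a call that was lost without either dKO library. Alx1 had 9.34 and 8.66 in WT and 46.2 and 30.2 in the dKO, a log2 fold change of 1.94 (SE 0.48, adjusted p = 0.0725), kept in 7 of 13 other settings and lost without any one of the 4 libraries. Pitx1 had 0 reads in both WT and both Ezh2 KO libraries and normalised counts of 14.8 and 27.5 in the dKO (adjusted p = 0.0282). This was 12.5-fold above a floor of 3 reads over the WT libraries. Such ratios to the floor pool the libraries and leave out the counting error of the higher line, so they are not lower limits. This call was lost without dKO replicate 1, and without dKO replicate 2 the gene fell below the filter. Meis2, at 347 and 325 in the dKO, had a log2 fold change of 0.70 (SE 0.19, adjusted p = 0.101). Six4, the tested gene with the largest decrease, was at 189 and 164 in WT and 121 and 113 in the dKO, with a log2 fold change of -0.59 (SE 0.32, adjusted p = 0.349).

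With inactive EZH2 in place, Meis1 and Otx1 were higher than in WT. These 2 were called higher and 0 lower in Ezh2 Y726D, against 1.66% and 1.06% of all genes. Meis1 was at 70.4 and 94.0, a log2 fold change of 1.84 (SE 0.36, adjusted p = 0.0480), lost without WT replicate 2 or without Ezh2 Y726D replicate 2. Otx1, a gene of the forebrain, had 9.34 and 3.85 in WT and 34.8 and 32.4 in Ezh2 Y726D, a log2 fold change of 2.29 (SE 0.55, adjusted p = 0.0820). This call was kept in only 4 of 12 other settings, and was lost with DESeq2, with only the libraries compared, and without WT replicate 2 or either Ezh2 Y726D library. Meis2, at 489 and 336, passed the p threshold (adjusted p = 0.0480) with a log2 fold change of 0.96, below the minimum. Pitx1, at 3.57 and 13.4, was 4.73-fold above the floor for WT but missed the threshold (adjusted p = 0.1001). Six4 was at 125 and 62.6, with a log2 fold change of -0.98 (SE 0.32, adjusted p = 0.182). The comparisons with WT share the WT libraries, so the values of a gene in different lines against WT are not independent.

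The dKO and Ezh2 KO differ in whether EZH1 remains, and 5 genes were called higher in the dKO and 0 lower, against 3.52% and 0.0577% of all genes. Lmx1a, which specifies dopaminergic neurons, was at 59.4 and 112 in the dKO, with a log2 fold change over Ezh2 KO of 4.78 (SE 0.76, adjusted p = 0.0162), lost without Ezh2 KO replicate 1 or without either dKO library. Its WT libraries, at 37.4 and 5.78, lay apart from each other, and the difference from WT did not pass the test (adjusted p = 0.144). Otx1 had 3.14 and 1.94 in Ezh2 KO and 21.4 and 28.4 in the dKO, a log2 fold change of 2.88 (SE 0.55, adjusted p = 0.0319). Pitx1 was 13.9-fold above the floor for Ezh2 KO (adjusted p = 0.0241). Alx1 had 9.41 and 9.68 in Ezh2 KO, a log2 fold change of 1.86 (SE 0.48, adjusted p = 0.0946). Shox2, a gene of limb and heart development, had 1 read in each Ezh2 KO library and normalised counts of 15.7 and 7.99 in the dKO, a ratio of 11.9 (95% interval 3 to 103, counting error only, exact binomial) with adjusted p = 0.0889. For Otx1 and Alx1 leaving out any one of the 4 libraries ended the call, for Pitx1 dKO replicate 1 or either Ezh2 KO library, and for Shox2 either Ezh2 KO library. Without dKO replicate 2, Pitx1 fell below the filter, as did Shox2 without either dKO library. Over all other settings the call was kept in 3 of 13 for Alx1, 4 of 10 for Shox2, 7 of 12 for Otx1, 7 of 11 for Pitx1 and 10 of 13 for Lmx1a, and DESeq2 called neither Alx1 nor Shox2.

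Ezh2 Y726D against Ezh2 KO gave 3 genes higher and 0 lower, against 2.31% and 1.21% of all genes. Otx1 had a log2 fold change of 3.31 (SE 0.55, adjusted p = 0.0211), lost without Ezh2 KO replicate 2. Pax8, a gene of thyroid and kidney, had 1 read in each Ezh2 KO library and normalised counts of 15.2 and 14.5 in Ezh2 Y726D, a ratio of 14.8 (95% interval 3.76 to 128) with adjusted p = 0.0443, lost without Ezh2 Y726D replicate 2 or either Ezh2 KO library. Pitx1 was 5.27-fold above the floor for Ezh2 KO (adjusted p = 0.0895). Its call was lost without the same libraries and kept in 4 of 11 other settings, while that of Pax8 was kept in 7 of 12. In WT cells Pax8 was at 4.002 and 1.926, and in the dKO at 7.42 and 5.33.

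Between Ezh2 Y726D and the dKO, 0 genes were called in either direction with limma, against 0.187% of all genes higher and 1.49% lower, and 2 had an unadjusted p below 0.05. DESeq2 called Lmx1a lower in Ezh2 Y726D. Lmx1a, at 9.81 and 12.3 in Ezh2 Y726D, had a log2 fold change against the dKO of -2.78 (SE 0.76, adjusted p = 0.144), and Meis1 one of -0.89 (SE 0.36, adjusted p = 0.343).

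**Figure D5:**
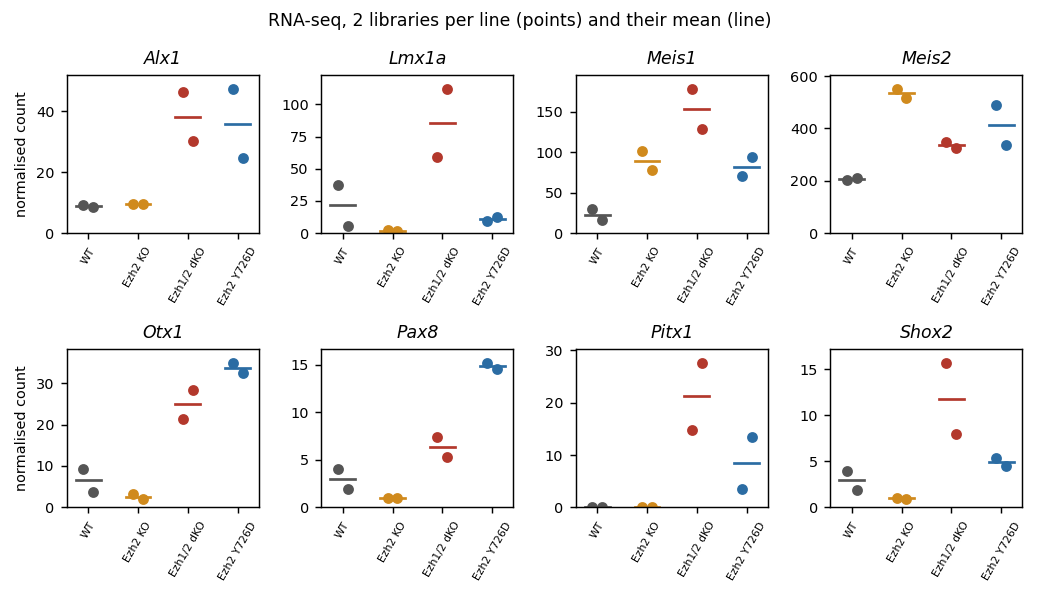
Normalised RNA-seq counts (y axis, from 0, own scale per gene) of the 8 homeobox genes called in any comparison, with 2 libraries per line as points and their mean as a line. Pitx1 is at 0 in both WT and both Ezh2 KO libraries, and Meis2 is lowest in WT, at 204 and 210, and highest in Ezh2 KO, at 551 and 518.

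The 29 genes below the filter were counted in sum. Together they had 20 and 14 reads in WT, 8 and 14 in Ezh2 KO, 100 and 121 in the dKO, and 74 and 68 in Ezh2 Y726D, and 12 and 9 of them were detected in WT, 7 and 8 in Ezh2 KO, 22 and 22 in the dKO, and 20 and 18 in Ezh2 Y726D. Both libraries of each of the last pair of lines were thus above all 4 of WT and Ezh2 KO. Lhx2, a LIM gene of forebrain and hair follicle, had no read in WT and normalised counts of 9.07 and 17.8 in the dKO, 7.9-fold above the floor for WT. Isl2, a motor neuron gene, had 1 read in WT and 22 in the dKO, a ratio of 16.8 (95% interval 2.72 to 694). Lhx5 had 1 read over the WT libraries, 7 in the dKO and 8 in Ezh2 Y726D, ratios of 5.35 (0.687 to 241) and 7.1 (0.952 to 315), which were not distinguishable from 1 at this depth. Six2, a gene of kidney progenitors, was at 1.33 and 1.93 in WT, 2.47 and 4.44 in the dKO and 2.68 and 1.12 in Ezh2 Y726D. Pax9, which passed the filter, had 2 reads in WT, 36 in the dKO (ratio 13.8, 3.54 to 118) and 16 in Ezh2 Y726D (ratio 7.1, 1.67 to 63.6), and was not called in any comparison.

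Over all 55 genes, tested or not, both libraries of a line were compared with both of another. Both dKO libraries lay above both WT libraries at 32 genes and below at 2, beside 28.6% and 20.7% of all 18055 genes. In Ezh2 Y726D against WT the counts were 28 and 3, beside 18.2% and 16.4%. In Ezh2 KO against WT they were 8 and 8, beside 16.4% in each direction, so near the background. The dKO lay above Ezh2 KO at 27 genes and below at 2 (28.4% and 22.6%), Ezh2 Y726D above Ezh2 KO at 23 and below at 5 (21.5% and 19.3%), and Ezh2 Y726D above the dKO at 6 and below at 13 (19.5% and 25.2%).

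These counts were split by promoter state among the 49 genes with WT SUZ12. In the dKO, 26 of the 36 genes without a SUZ12 peak there had both libraries above WT, and 5 of the 13 with one. The same split by dKO SUZ12 gave 21 of the 36 and 5 of the 13 in Ezh2 Y726D, and 6 of the 36 and 1 of the 13 in Ezh2 KO. In Ezh2 Y726D the split had the same direction as in the dKO, and its cause was not tested. In Ezh2 Y726D, 17 of the 24 genes with H3K27ac had both libraries above WT, and 9 of the 25 without. In the dKO, 7 of the 10 with H3K27ac did so, and 24 of the 39 without. The 13 genes with SUZ12 in the dKO also had lower levels per kb, and a gene at 0 in all libraries counts as not above, so these splits were given as counts without a test. They were not counted over all genes with WT SUZ12.

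By class, the summed normalised counts of the PAX genes were 28.0 and 21.2 in WT, 14.6 and 11.6 in Ezh2 KO, 70.9 and 37.3 in the dKO, and 69.5 and 71.6 in Ezh2 Y726D. Those of the paired-like genes were 152.1 and 236.8 in WT, 451.6 and 297.1 in Ezh2 KO, 580.2 and 487.5 in the dKO, and 477.8 and 315.5 in Ezh2 Y726D. All mutant sums lay above WT, and those of Ezh2 Y726D overlapped with Ezh2 KO. Otx2 gave much of these sums and overlapped with WT in each mutant. It was at 82.7 and 173.3 in WT, 411.9 and 140.3 in Ezh2 KO, 309.9 and 137.6 in the dKO, and 232.7 and 98.45 in Ezh2 Y726D. Sums without Otx2 were not taken. The sums of the LIM genes were 81.4 and 41.4 in WT, 47.0 and 21.3 in Ezh2 KO, 198 and 233 in the dKO, and 133 and 205 in Ezh2 Y726D. In the PAX and LIM classes the dKO and Ezh2 Y726D libraries lay above all WT and Ezh2 KO libraries, with Lmx1a and Lhx6 giving much of the LIM sums. For the sine oculis genes, 241 and 191 in WT and 211 and 192 in the dKO overlapped. For the IRX genes, 20.01 and 4.814 in WT overlapped with 12.4 and 29.3 in the dKO and with 8.02 and 15.7 in Ezh2 Y726D. The MEIS, PBX and PKNOX sums were 703 and 781 in WT and from 942 to 1263 in the mutants, with Meis2 as the largest part of the rise in Ezh2 KO.

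The partners of these factors mostly did not pass the test. None of the 7 tested LIM partner genes (such as Ldb1 and Lmo4), the 3 tested sine oculis partner genes of the EYA and DACH families, or the 6 tested TLE corepressor genes was called in any of the 6 comparisons. Eya3 was at 454 and 522 in WT and 301 and 292 in Ezh2 Y726D, a log2 fold change of -0.71 (SE 0.15, adjusted p = 0.0576), below the fold minimum. Among 8 tested paired and TALE genes outside the rule, Mkx, a TALE gene of tendons, was called higher in Ezh2 Y726D than in Ezh2 KO (log2 fold change 1.25, SE 0.31, adjusted p = 0.0848), the only call in the 6 comparisons.

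Markers of other cell types moved in the same lines. None of the 8 pluripotency markers was called in any comparison, and their summed normalised counts were 14480 to 16020 in WT, 14820 to 15050 in Ezh2 KO, 12880 to 13980 in the dKO and 13040 to 14350 in Ezh2 Y726D. Krt8 and Krt18, keratins of trophectoderm and other epithelia, were called higher in the dKO and in Ezh2 Y726D than in WT, 2 of 5 genes of that list, with sums of 314.9 to 400.2 in WT, 384.7 to 538.1 in Ezh2 KO, 607.5 to 874.5 in the dKO and 541.3 to 1114 in Ezh2 Y726D, while Elf5 had a normalised count of 0.888 or less in the dKO. Of the 8 primitive endoderm markers 5 were tested. Gata4 and Dab2 were called higher in the dKO than in WT (Dab2 also than in Ezh2 KO), and 0 were called in Ezh2 Y726D against WT. The sums were 302.8 to 457.4 in WT, 258.3 to 616.4 in Ezh2 KO, 441.8 to 682 in the dKO and 300.5 to 813.3 in Ezh2 Y726D, and all overlapped with WT. Lama1 made up most of these sums, and without it they were 20.01 and 36.59 in WT, 10.46 and 29.99 in Ezh2 KO, 145.9 and 171.4 in the dKO and 63.31 and 55.94 in Ezh2 Y726D. Both of the last lines lay above WT only in this sum, from which Lama1 was left out after its values were seen. Of the fibroblast markers, 1 of 4 in the table was tested, Thy1, and it was called higher in both lines than in WT and than in Ezh2 KO. Thy1 was at 10.7 and 4.81 in WT and 88.2 and 101 in the dKO, while Lum was at 0 in both WT libraries and at 4.95 and 0.888 in the dKO. Nes, of 4 neural markers, was called higher in the dKO than in Ezh2 KO, and of 5 markers of primitive streak and mesoderm 3 were tested and 0 called.

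Ezh2 Y726D replicate 2 stood apart in some of these markers. T was at 51.46 there and at 5.35 in replicate 1, Eomes at 110.8 and 43.69, and Cdx2, a trophectoderm gene, at 439.7 and 32.99. The streak and mesoderm sum was 193.6 in this library, beside 61.37 to 63.54 in WT. Without it, 1 homeobox gene was called higher in Ezh2 Y726D than in WT, Meis2, and 1 higher than in Ezh2 KO, Otx1. The part of other cell types in the homeobox results was not tested.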

How the data were processed

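RNA-seq reads had been aligned by the authors to mm9 with TopHat and counted per gene with HTSeq-count without strand, and the deposited table holds normalised counts, a signal in which DESeq2 size factors divide the reads. Whole reads were recovered for 100% of values (tolerance 0.001), with 3604123 to 5181553 reads per library. ChIP-seq and ATAC-seq reads had been aligned with Bowtie and peaks called with MACS2 by the authors, and the deposited lists give a −log10 p per peak (1e-10 or below for SUZ12, H3K27me3 and H3K27ac). HA lists hold positions only, and other deposited regions were broad. The spike-in does not enter the peak lists. Their depth is unknown, so no interval was given for them. The authors' comparison tables (log2 fold changes and p-values against WT) were not used, and 0 columns of the count table were left without a sample.

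The homeobox genes and lists were chosen with earlier results of these data known. Groups came from the sample labels. limma 3.58.1 (R 4.3.3, lmFit and eBayes with trend) was fitted to log2(normalised count + 1) of 13872 genes with a mean of at least 5 in all 8 libraries, two-sided, with Benjamini-Hochberg adjustment. Calls needed an adjusted p below 0.1 and a log2 fold change of 1 or more in size, which this scale understates for low genes. Replicate numbers were not taken as pairs. Alternatives were other pseudocounts, filters and normalisation, edgeR 4.0.16 and DESeq2 1.42.0 on recovered reads, fewer libraries, the replicate block, other thresholds and each library left out. The fit was tested on simulated data. A peak belonged to a gene if it lay within 5 kb of any GENCODE vM1 start site, and start sites were found for 16423 table genes (15709 through the symbol, 714 through a synonym, with 1632 left out). Lists counted beside the 55 genes were LIM partners, sine oculis partners, TLE corepressors, other paired and TALE genes, and markers of pluripotent cells, primitive endoderm, streak and mesoderm, neural cells, fibroblasts and trophectoderm. Ezh1 and Ezh2 checked the genotypes. Named were the called genes, the highest per kb in each class, the largest change against WT with both libraries beyond WT, Pax9, Lhx5, Six2 and genes whose promoter state differed from the rest. The genes with SUZ12 in the dKO, Lhx2, Isl2, Eya3, Lama1, T, Eomes and Cdx2 were named after their values were seen. A planned protein feature was not run. Results for some genes and 1 sequence are not reported here by name.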

Additional observations from a re-analysis of the deposited data

Results flagged for a closer look

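Some genes were called where 2 mutant clones were compared directly (limma, adjusted over 13872 genes, 2 libraries per line). Each gene below was higher in both libraries of the first line. Between Ezh1/2 dKO and Ezh2 KO, the log2 difference was 1.86 for Alx1, 4.78 for Lmx1a, 2.88 for Otx1, 4.41 for Pitx1 and 2.61 for Shox2. Adjusted p was 0.0946, 0.0162, 0.0319, 0.0241 and 0.0889 in this order. These calls were kept in 3 of 13, 10 of 13, 7 of 12, 7 of 11 and 4 of 10 other settings. Between Ezh2 Y726D and Ezh2 KO the log2 difference was 3.31 for Otx1, 2.98 for Pax8 and 3.02 for Pitx1. Adjusted p was 0.0211, 0.0443 and 0.0895, and the calls were kept in 11 of 12, 7 of 12 and 4 of 11. Pitx1 had 0 reads in Ezh2 KO, so that its fitted difference depends on the pseudocount and is no bound.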

How the results depend on the processing

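No fold change of a called gene changed sign under any alternative run, but 75 of these values no longer passed the call. A count cannot reverse, and of the counts, 163 values stayed within 1.5 times and 61 moved. The cause of a moved count was not tested, beyond the fewer or more genes tested under another filter. For genes called higher in Ezh2 KO than in WT (2), each of pseudocount 5, no filter, a mean of at least 20, quantile normalisation, edgeR, only the libraries compared and an adjusted p below 0.05 gave 1, and leaving out 1 library gave 0 to 1. For lower (0), DESeq2 gave 1 and leaving out 1 library 0 to 1. For the dKO against WT (3 higher), pseudocount 5, no filter and only the libraries compared gave 6, DESeq2 gave 5, and leaving out 1 library gave 0 (without either dKO library) to 7 (without WT replicate 1). For Ezh2 Y726D against WT (2 higher), a mean of at least 20, quantile normalisation and an adjusted p below 0.05 gave 1, only the libraries compared gave 0, and leaving out 1 library gave 0 (without WT replicate 2) to 5 (without WT replicate 1), with 0 to 1 lower. For the dKO against Ezh2 KO (5 higher), pseudocount 0.5 and an adjusted p below 0.05 gave 3, no filter 8, a mean of at least 20 and quantile normalisation 1, only the libraries compared 10, and leaving out 1 library 0 to 2. For Ezh2 Y726D against the dKO (0 lower), pseudocount 5, DESeq2 and only the libraries compared gave 1. For Ezh2 Y726D against Ezh2 KO (3 higher), no filter gave 5, a mean of at least 20 gave 0, quantile normalisation 1, and leaving out 1 library 1 to 4; lower (0) became 1 with pseudocount 5 and DESeq2 and 0 to 1 with a library left out.

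With the replicate block the counts higher were 1 in Ezh2 KO against WT, 1 in Ezh2 Y726D against WT and 3 in the dKO against Ezh2 KO, and no other count moved by over 1.5 times. The block ended the calls of Meis1 in the first, Otx1 in the second, Alx1 and Shox2 in the third, and Pitx1 in Ezh2 Y726D against Ezh2 KO. The numbers were not taken as pairs: the deviations of same-numbered libraries correlated at -0.409 to -0.0653 between WT and a mutant, and at 0.223 to 0.288 between mutants. Within 1 kb of a start site, SUZ12 in the dKO was at 8 genes, H3K27ac in Ezh2 KO at 5, the HA control at 0, H3K27me2 at 10 in WT and 31 in the dKO, and H3K27me1 at 25 in Ezh2 KO and 25 in the dKO. At a p of at most 1e-20, SUZ12 was at 0 genes in the dKO and 26 in Ezh2 Y726D, and H3K27ac at 4 in Ezh2 KO, 3 in the dKO, 12 in Ezh2 Y726D and 6 in Ezh2 R685C. The limits are 2 RNA libraries per line, 29 genes too low to test, and 1 peak list per line and target.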
